A study of Homo sapiens with 15 samples.

Results

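An intron can belong to more than 1 annotated gene when genes overlap on the same strand or when a readthrough transcript runs from one gene into the next. The introns described here are those that the deposited intron retention tables assign to 2 or more gene names at once, matched over the 4 tables by chromosome, start, end and strand. They number 3567 of the 111143 introns listed in any table, and the other 107576 carry 1 gene name. The data came from HCT116, a human colon cancer cell line. The groups were 4 bktRNA1-deficient clones, KO-1 to KO-4, and wild-type HCT116 cells (WT), with 3 polyA RNA libraries each from 3 independent experiments, 15 libraries in all. Each KO group is 1 clone, so a difference from WT in 1 clone cannot be told apart from clonal variation, and the sources used here do not say how the clones were made. The study compared each clone with WT, and the same 3 WT libraries serve all 4 comparisons. The level of bktRNA1 itself was not analysed here, because the intron tables do not give it.

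Readthrough transcription happens when RNA polymerase passes the end of a gene without release of the transcript, and the RNA can then be spliced so that exons of both genes stand in 1 molecule. Annotation records such molecules as genes of their own, which repeat the introns of the genes they join, and an RNA-seq read over a repeated intron cannot be given to one gene or the other. Introns are removed by 2 spliceosomes. Most are of the U2 type, and a small class, the U12-type or minor introns, has a long conserved 5′ end and branch site and is often spliced more slowly. An intron left in a polyadenylated RNA is counted as retained.

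A few sequences show what the results below turn on. The introns are read 5′ to 3′ on the strand of the gene from GENCODE 29 transcripts on hg38, and capitals mark the first 8 and the last 2 bases of the intron. Intron 37 of CHD4 and intron 8 of NOP2 are given whole, since they are 111 and 99 nt long and both belong also to the readthrough gene AC006064.6. For ZNF207 intron 1, CHD4 intron 38 and SRSF1 intron 4 the 5′ end is given, with the last 8 bases of the exon before it.
CHD4 intron 37 (chr12:6577918-6578028, minus strand): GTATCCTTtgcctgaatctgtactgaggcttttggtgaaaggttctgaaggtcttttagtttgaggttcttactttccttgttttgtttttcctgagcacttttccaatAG
NOP2 intron 8 (chr12:6563515-6563613, minus strand): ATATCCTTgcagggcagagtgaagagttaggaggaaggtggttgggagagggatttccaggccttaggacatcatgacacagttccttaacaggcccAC
ZNF207 intron 1, 5′ end (chr17:32350319-32350346, plus strand): tggtgctgGTATCCTTtgtcggtttgaa
CHD4 intron 38, 5′ end (chr12:6577765-6577792, minus strand): ggtttaagGTGAGCGGttggggaggaat
SRSF1 intron 4, 5′ end (chr17:58004903-58004930, minus strand): aggcaatgGTATGACTccaagtgctatt
The first 8 bases of CHD4 intron 37 and ZNF207 intron 1 are GTATCCTT and those of NOP2 intron 8 are ATATCCTT, the letters known for U12-type introns. CHD4 intron 38 and SRSF1 intron 4 differ from both at 3 or more of the 8 positions. The first 8 bases could be read for 978 shared introns and for 27466 introns of 1 gene, where an exon of another transcript covers them. GTATCCTT or ATATCCTT was matched with at most 1 mismatch, on the strand of the gene, by 8 shared introns (0.818%) and by 257 introns of 1 gene (0.936%). Exact matches numbered 4 (0.409%) and 140 (0.510%). The 8 shared ones lie in NOP2, CHD4, ZNF207, GPN1, ERCC5, TM9SF1, SQOR and STRADA. The branch site letters TCCTTAAC were sought in the last 40 bases of the intron, and stand there without a mismatch in NOP2 intron 8, with 1 mismatch in ZNF207 intron 1 and with 2 in CHD4 intron 37. A match with 2 mismatches also stands in EIF4A1 introns 9 and 10 and S100A13 intron 2. The first 8 bases of these introns differ from the U12-type letters at 3 or more positions. A match is a description of the letters and not of the spliceosome used.

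The tables hold, for each intron and library, the reads over its exon-intron boundaries (retained) and the reads that join its 2 exons (spliced). The retention level is the share of the retained form after each count is divided by its effective length, at most 262 positions for the retained form and 131 for the spliced form. Shared introns took 677803 to 1435216 junction reads per library, or 3.92 to 4.21% of all junction reads in the tables (17287797 to 35348260). Of their junction reads 4.06 to 5.42% were retained, against 12.6 to 14.0% for introns of 1 gene. Of 12 colon epithelial marker genes 8 had listed introns, with 79437 to 189888 spliced reads per library. COL1A1 was the only fibroblast marker listed, of 5, with 169 to 2025 spliced reads, and no leukocyte, endothelial or hepatocyte marker was listed. Every listed intron had at least 20 junction reads in each library of the tables that list it.

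Most of these introns are shared between a well known coding gene and an unnamed transcript unit that runs past it. By their names, 2478 (69.5%) paired a gene with a clone-based name such as AC006064.6, over 565 sets of names. Another 800, in 161 sets, had a name that joins gene symbols with a hyphen, such as NME1-NME2, and 253, in 76 sets, had 2 ordinary symbols, such as FAU and SYVN1. Antisense names occurred on 19 introns, small-RNA names or hosts on 11, and LINC names on 6. The number of names was 2 for 3485 introns and 3 for 80. The largest sets were 2 protocadherin introns, with 5 names at chr5:141009729-141010165 and 22 at chr5:141494866-141505392. Protocadherins are adhesion proteins whose variable first exons are spliced to common last exons, so each name is 1 first exon.

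The names hide how many pairs are readthrough pairs. A transcript that GENCODE tags as readthrough held 3048 of the shared introns (85.4%) and 506 of the introns of 1 gene (0.470%). That tag covered 784 of the 800 introns with hyphenated names, 2216 of the 2478 with clone-based names and 26 of the 253 with 2 ordinary symbols. In all, 470 genes whose transcripts are all tagged as readthrough were among the names, 369 of them clone-based, and they shared 2873 introns. Exons of 382 of these genes overlapped exons of 2 or more coding genes. Of 1423 gene IDs, 1388 were found in GENCODE 29. None of the listed genes lay on the strand opposite to its intron, so an antisense name here marks a gene that shares the splice sites and not one that faces them. By type, 2806 introns paired 2 coding genes, and chromosomes 19, 1 and 17 held the most, with 296, 266 and 265.

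The longest run belonged to CHD4, a helicase of the NuRD chromatin remodelling complex, which shared 37 introns with AC006064.6. RTEL1, a helicase that protects telomeres, shared 33 with RTEL1-TNFRSF6B, and ANKHD1, an ankyrin repeat protein, shared 29 with ANKHD1-EIF4EBP3. IPO4, an importin, shared 28. SRCAP, a chromatin remodeller that deposits the histone variant H2A.Z, and VARS2, the mitochondrial valyl-tRNA synthetase, shared 27 each. These runs differed in how fully they were spliced in WT. The median retention level in WT was 0.0830% over the CHD4 introns, 0.287% for ANKHD1, 1.21% for IPO4 and 2.81% for RTEL1. It was 10.2% over the 23 introns that MSH5, a meiotic MutS homologue, shared with MSH5-SAPCD1.

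The readthrough molecules themselves left few spliced reads. Introns that carry only the readthrough gene's name, among them those that join one gene to the next, were listed for 157 of the 470 readthrough genes, 248 introns in all, and none was listed for the other 313. In WT, the median own intron had 1.50 spliced reads per library and the shared introns of the same genes had 132. Per gene, own introns had a median of 0.763% of the spliced reads of the shared ones (middle 50% of genes, 0.141 to 4.35%). In the 157 genes the retention level was higher in the own than in the shared introns of 156, with medians of 96.8% and 1.24%. Introns that end in 2 different coding genes numbered 118, over 94 readthrough genes, and all 118 had an annotated exon inside them. Their median was 0.485% of the shared introns' spliced reads, 104 of them were under 5%, and 25 had no spliced read in WT. A count of reads over such an intron takes in reads of any gene that lies inside it, so their level is no measure of splicing. Read counts of a bulk sample cannot tell fewer molecules per cell from fewer cells that make them.

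**Figure D1:**
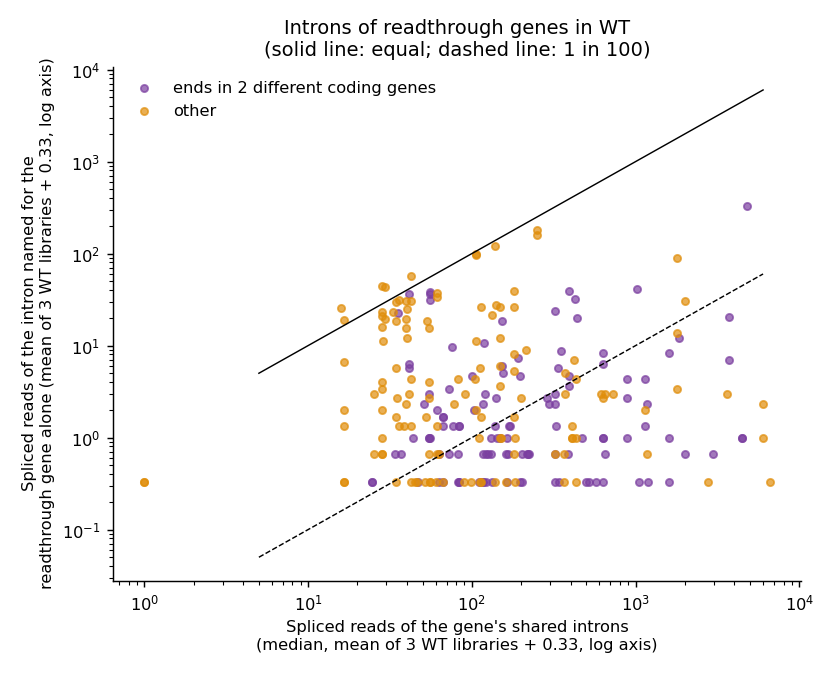
Spliced reads per WT library of introns that carry only the readthrough gene's name (y axis) against the median of the introns it shares (x axis), both as mean reads plus 0.33 on log axes, with 1 point per own intron (248). The solid line marks equal reads and the dashed line 1 in 100. Purple points, introns that end in 2 different coding genes, lie for the most part near or under the dashed line, and orange points, the other own introns, reach higher.

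A few joining introns were spliced often enough to read in each library, and 11 had at least 20 spliced reads in WT. Those described here and under other observations were not chosen by the naming rule given with the data processing. Overlap with WT was not counted over all 11. NME1-NME2 joins a pair of nucleoside diphosphate kinase genes. Its joining intron (chr17:51161273-51166826, plus strand) had 177, 162 and 134 spliced reads for KO-1, 408, 459 and 457 for KO-2, 296, 272 and 236 for KO-3, 412, 411 and 352 for KO-4, and 317, 372 and 292 in WT. As a share of the median spliced reads of its shared introns this was 5.59 ± 0.31% for KO-1, 9.33 ± 0.48% for KO-2, 5.32 ± 0.25% for KO-3 and 8.57 ± 0.67% for KO-4, against 6.81 ± 0.12% in WT (SD, n = 3 each). KO-2 and KO-4 lay above WT and KO-1 and KO-3 below it, and in no clone did a library overlap with the WT libraries. An intron named only for ANKHD1-EIF4EBP3 (chr5:140542282-140548905, plus strand) had 127 ± 3.6% of the shared introns' spliced reads for KO-1, 196 ± 21.6% for KO-2, 133 ± 18.5% for KO-3 and 157 ± 15.0% for KO-4, against 90.9 ± 3.94% in WT (SD, n = 3 each). EIF4EBP3 is a translation repressor that binds the cap-binding protein eIF4E. AC107871.1 joins CALML4, a calmodulin-like protein, to CLN6, a membrane protein of the endoplasmic reticulum. One of its joining introns (chr15:68197629-68218535, minus strand) had 9, 10 and 6 spliced reads for KO-1, 7, 18 and 12 for KO-2, 17, 19 and 9 for KO-3 and 16, 11 and 13 for KO-4, against 39, 41 and 29 in WT. Every clone library was below every WT library, and as a share of the shared introns the clones averaged 32.1, 31.4, 31.2 and 32.0%, against 66.4% in WT. A second joining intron of the same gene (chr15:68197629-68229501, minus strand), with the same 3′ end, averaged 72.5, 55.3, 67.3 and 54.9% in the clones, against 68.9% in WT. These ratios are descriptions and were not tested, and the position of an intron along its transcript was not taken into account.

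In WT, shared introns were spliced about as fully as others, and few of them were mostly retained. Their median retention level was 0.940%, against 1.10% for introns of 1 gene. Over the 3 WT libraries in the order listed, the medians were 0.901, 0.686 and 1.09% for shared introns and 1.08, 0.840 and 1.27% for introns of 1 gene, so the shared median was the lower one in each library, by less than the libraries differed among themselves. The upper ends differed more. A level of at least 50% was reached by 148 shared introns (4.15%) and by 13967 introns of 1 gene (13.0%), and the 90th percentile was 14.8% against 81.3%.

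The difference of medians changed with whether an annotated exon lies inside the intron. With no exon inside, shared introns had a median of 0.666% (2374 introns) and introns of 1 gene 0.585% (66432), so the order turned round. With an exon inside, the medians were 2.01% (1193, 33.4% of shared introns) and 5.37% (41144, 38.2% of introns of 1 gene). A level of at least 50% stayed rarer in shared introns in both classes. It was reached by 9.56% against 30.4% with an exon inside, and by 1.43% against 2.19% with none. The 90th percentile was 48.4% against 98.7% with an exon inside, and 7.63% against 6.94% with none. Shared introns were also shorter, with a median of 989 nt against 1327 nt. Within 4 classes of intron length with equal numbers of introns, from the shortest to the longest, shared introns had medians of 1.86, 0.953, 0.637 and 0.513%, and introns of 1 gene had 1.94, 1.30, 0.856 and 0.724%. Introns are not replicates, and no test was made over them.

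**Figure D2:**
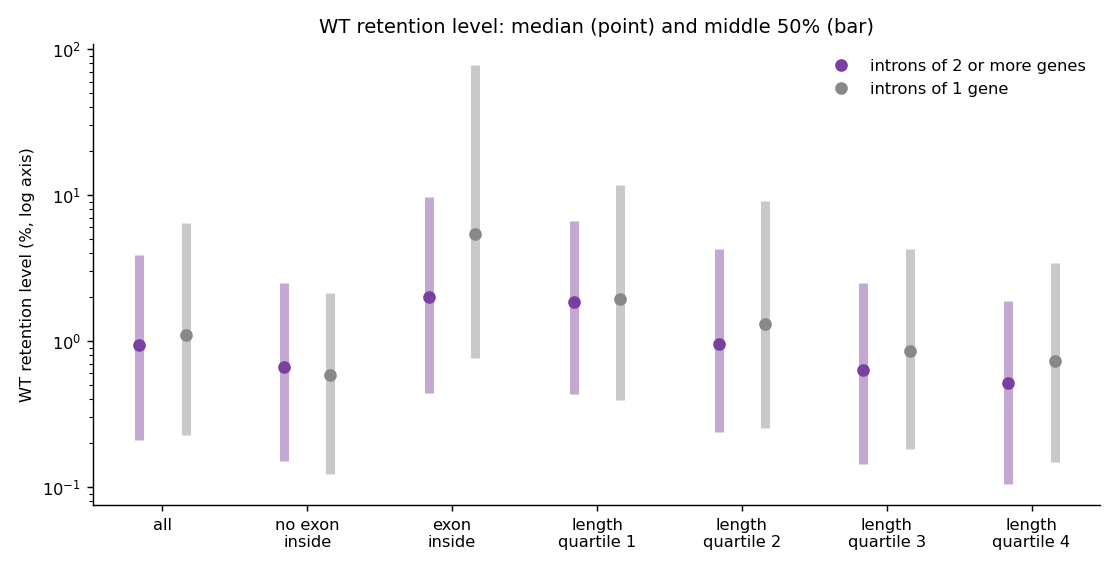
Retention level in WT (log axis, percent, mean of 3 libraries per intron) of shared introns, on the left of each pair, and of introns of 1 gene, for all introns, by whether an annotated exon lies inside, and by 4 classes of intron length. Points are medians and lines the middle 50% of introns. The shared median is below the other in each pair except introns with no exon inside, where it is 0.666% against 0.585%.

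The level differed by kind of partner, and so did the share of introns with an annotated exon inside. Clone-based pairs had a median of 0.837% in WT, readthrough names 1.28% and pairs of ordinary symbols 0.803%. The 11 introns with small-RNA names had 6.22%, the 19 with antisense names 19.4% and the 6 with LINC names 17.5%, each from few introns. An exon lies inside 10 of the 11, 15 of the 19 and 5 of the 6. The share was 32.5% for clone-based pairs, 36.1% for readthrough names and 27.3% for ordinary symbols. Kind of partner and exon inside were not separated.

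Single introns at the ends of the range show the spread within each kind of pair. Of 21 tested introns chosen as the highest and lowest in WT within each kind, 13 had libraries that overlapped with WT in all 4 clones, and 8 had at least 1 clone that lay above or below WT in all its libraries. The choice rested on the same WT values, and the share among all tested introns was not counted. None of the 21 was called. An intron of TARDBP, the gene of the RNA-binding protein TDP-43, shared with AL109811.3 (chr1:11023330-11024063, plus strand), had levels of 96.8 ± 0.42, 97.4 ± 1.8, 97.6 ± 0.95 and 96.8 ± 0.41% in KO-1 to KO-4, against 97.0 ± 0.77% in WT (SD, n = 3 each). An intron shared by SEC31A, a coat protein of COPII vesicles, and THAP9-AS1 (chr4:82900224-82900371, minus strand) averaged 91.2, 89.7, 90.5 and 93.7% in the 4 clones, against 89.4% in WT. One shared by CPNE1, a calcium-dependent phospholipid-binding protein, and RBM12, an RNA-binding protein (chr20:35659015-35664801, minus strand), averaged 95.7, 95.6, 92.3 and 96.2%, against 94.2% in WT. At the low end stood genes with very many reads. The filter described below fixes this, since a tested intron needs retained reads and a low level then needs many spliced ones. LDHB, a lactate dehydrogenase subunit, shared an intron with AC010197.2 (chr12:21644109-21646898, minus strand) whose level was 0.0175 ± 0.015, 0.0359 ± 0.014, 0.0547 ± 0.030 and 0.0300 ± 0.0086% in the clones, against 0.0427 ± 0.018% in WT. The first intron of FAU, which encodes a ribosomal protein fused to a ubiquitin-like domain, shared with SYVN1, a ubiquitin ligase of the endoplasmic reticulum (chr11:65121822-65122089, minus strand), averaged 0.375, 0.402, 0.449 and 0.377%, against 0.438% in WT. In these 5 introns clone and WT libraries overlapped, except that KO-4 lay above WT for SEC31A and KO-1 below it for LDHB. The intron of ALDOA, a glycolytic aldolase, shared with AC093512.2 (chr16:30069674-30069829, plus strand), had 0.116 ± 0.051, 0.141 ± 0.026, 0.118 ± 0.020 and 0.141 ± 0.0079% in the clones, against 0.0474 ± 0.046% in WT (SD, n = 3 each), and only KO-1 overlapped with WT. This intron was chosen for its low WT level, which favours clones above WT. It averaged 5.33 retained reads in WT and passed the filter on reads through the clones, where it had more. One shared by ZSWIM8-AS1 and AC022400.5 (chr10:73797590-73797821, minus strand) averaged 87.5, 88.1, 83.7 and 91.8% in the clones, against 80.5% in WT, and only KO-4 stood clear of WT.

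Set against other introns of the same genes, shared introns again had the lower level. Both kinds were listed for 903 genes in WT, and the median level of shared introns was the higher in 152 and the lower in 750, with a median difference of -14.5 percentage points. Much of that came from the readthrough genes, whose own introns are the rarely spliced ones above. Without genes that are readthrough only, 746 genes remained, 151 higher and 594 lower, with a median difference of -5.10 points and medians of 1.04% for shared introns and 8.96% for introns of 1 gene. Among these, with introns that hold an exon left out as well, 352 genes gave 124 higher and 223 lower, and a median difference of -0.39 points. In KO-1 to KO-4 the median difference over all genes was -8.22, -13.3, -12.0 and -13.6 points. These counts are descriptions over genes, several of which share the same introns.

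Changes between clone and WT were tested for introns that averaged 10 or more retained reads and 10 or more spliced reads over the libraries compared, by a quasi-binomial F test adjusted with Benjamini-Hochberg over all introns of a comparison, with a threshold of 0.05. That filter kept 699, 869, 810 and 898 shared introns in the comparisons of KO-1 to KO-4, of 3001, 3313, 3221 and 3325 listed. In KO-1, 7 shared introns were higher and 3 lower (1.43% of those tested), where 1.47% of all tested introns passed. In KO-2, 12 were higher and 5 lower (1.96%), where 1.6% of all passed. In KO-3, 7 were higher and 1 lower (0.988%), where 0.713% passed, and in KO-4 11 were higher and 3 lower (1.56%), where 1.97% passed. Shared introns were thus called at about the rate of all introns in each clone, above it in KO-2 and KO-3 and below it in KO-1 and KO-4, and the difference in rate was not tested. By direction, 1.0, 1.38, 0.864 and 1.22% of the tested shared introns were higher in the 4 clones, against 1.29, 1.3, 0.558 and 1.54% of all tested introns. Lower were 0.429, 0.575, 0.123 and 0.334% of the shared ones, against 0.175, 0.304, 0.155 and 0.429% of all.

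**Figure D3:**
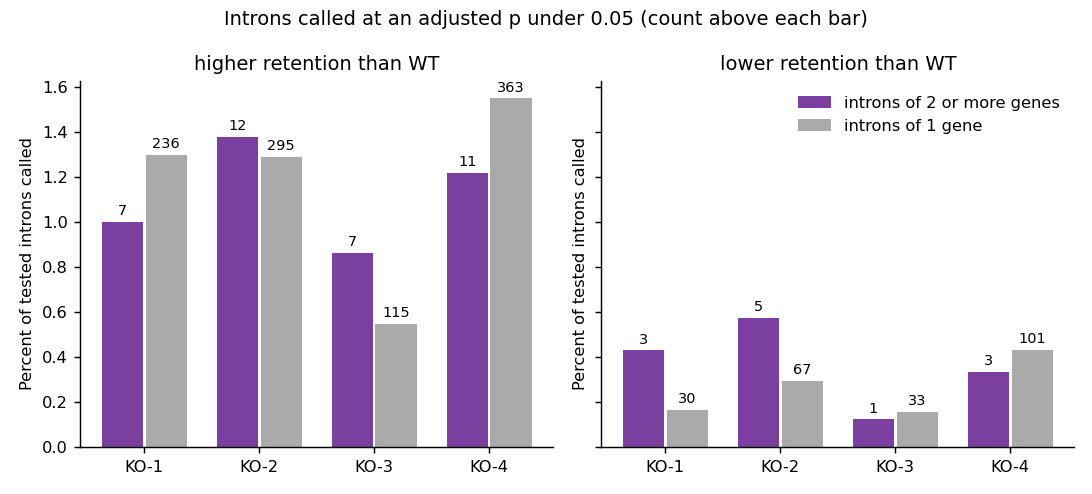
Percent of tested introns called higher (left panel) and lower (right panel) than WT in each clone, for shared introns, on the left of each pair, and introns of 1 gene, with the number called above each bar. In all 4 clones more shared introns were called higher than lower, with 7 against 3 for KO-1, 12 against 5 for KO-2, 7 against 1 for KO-3 and 11 against 3 for KO-4.

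The counts moved with the test and with single libraries. By limma on log2 odds, ZNF207 intron 1 in KO-1 was the only shared intron called (adjusted p = 0.017) and none was called in the other clones, while 42, 74, 57 and 87 had an unadjusted p under 0.05 in KO-1 to KO-4. Of all tested introns, limma called 41 higher and 1 lower in KO-1 and 7 and 2 in KO-2. It called 12 and 1 in KO-3 and 8 and 0 in KO-4. Unadjusted p under 0.05 was not counted over all tested introns. Leaving out 1 library at a time gave 6 to 16 called shared introns for KO-1, 7 to 25 for KO-2, 2 to 12 for KO-3 and 6 to 37 for KO-4, and each highest count came without the third WT library. The highest counts over all tested introns also came without that library. They were 509 higher and 42 lower for KO-1, 601 and 93 for KO-2, 211 and 50 for KO-3, and 993 and 121 for KO-4. With all libraries they were 243 and 33, 307 and 72, 122 and 34, and 374 and 104. The median change of the tested shared introns was 0.13, 0.08, -0.02 and 0.16 on the log2 odds scale in KO-1 to KO-4, and that of all tested introns was 0.13, 0.10, 0.02 and 0.17. With each clone centred on its median intron, the calls were 4 higher and 3 lower for KO-1, 8 and 5 for KO-2, 7 and 2 for KO-3, and 1 and 8 for KO-4, so in KO-4 the split turned round. The split of all tested introns in KO-4 turned too, from 374 higher and 104 lower to 143 and 194.

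Over the 4 clones, 34 shared introns of 25 name sets were called, 25 higher and 9 lower, and none in both directions. These introns gave 49 calls, since some passed in more than 1 clone. In 44 calls, 32 higher and 12 lower, the intron averaged 10 or more reads of both kinds in the clone and in WT, and the other 5, all higher, had fewer retained reads in WT. A readthrough-tagged transcript held 33 of the 34, and 25 had a clone-based partner. Both features were also common among all tested shared introns, which numbered 699, 869, 810 and 898 by clone. The tag covered 602, 753, 694 and 773 of these, and a clone-based partner was named for 442, 563, 515 and 574. Whether either feature was more frequent among the called introns was not tested. In 8 of the 34, all 12 clone libraries lay above all 3 WT libraries. These were introns of CHD4 (introns 37 and 38), ZNF207, BABAM1 (introns 5 and 6), PSMA1, GPS2 and NEURL4. In 1, shared by NDUFS3 and PTPMT1, all 12 lay below. The 34 were called from these same libraries, which favours such separation, and its share among all tested introns was not counted. GPS2 and NEURL4 averaged 6.67 retained reads in WT. An annotated exon lies inside 23 of the 34 and none inside the other 11. All lower calls, 3, 5, 1 and 3 in KO-1 to KO-4, were in introns with an exon inside. The same split of lower calls was not counted over all tested introns. Tested shared introns with an exon inside numbered 362, 437, 427 and 446 in KO-1 to KO-4. Those without one numbered 337, 432, 383 and 452. As above, such levels can take in reads of the exon inside, and the source of the reads was not tested. Intron numbers are those in an annotated transcript of the named coding gene. The comparisons share the WT libraries, so calls of 1 intron in several clones are not independent of each other.

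The intron called in all 4 clones was intron 37 of CHD4, the first sequence shown above. Its level was 4.15, 4.65 and 3.43% for KO-1, 2.23, 2.72 and 2.17% for KO-2, 2.01, 4.10 and 2.22% for KO-3 and 2.63, 2.42 and 3.41% for KO-4, against 0.554, 1.07 and 1.20% in WT. Every clone library was above every WT library, and KO-1 was the highest. The log2 odds of retention changed by 2.16 ± 0.35 for KO-1, 1.35 ± 0.35 for KO-2, 1.59 ± 0.37 for KO-3 and 1.62 ± 0.34 for KO-4 (SE), with adjusted p of 1.7e-06, 0.012, 0.0049 and 0.00066 by the quasi-binomial F test with Benjamini-Hochberg adjustment. The calls in KO-1 and KO-4 held with any 1 library left out. In KO-2 the adjusted p was 0.11 without the KO-2 library listed second and 0.19 without the WT library listed first, and in KO-3 it was 0.25 without the KO-3 library listed second and 0.14 without that WT library. The difference among the clones did not pass (adjusted p = 0.11 by the same test over the 12 clone libraries).

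Intron 38 of CHD4 (chr12:6573270-6577784, minus strand), the next one downstream and 4515 nt long, was also higher, without U12-like letters at its 5′ end. Its level was 3.31, 3.95 and 2.14% for KO-1, 2.25, 2.85 and 1.93% for KO-2, 3.29, 2.12 and 2.42% for KO-3 and 2.24, 1.86 and 2.46% for KO-4, against 1.10, 0.970 and 1.43% in WT. Again no clone library reached down to WT. The log2 odds change was 1.49 ± 0.32 in KO-1 (adjusted p = 0.0019) and 1.19 ± 0.31 in KO-3 (adjusted p = 0.028) and, past no threshold, 1.01 ± 0.31 in KO-2 (adjusted p = 0.072) and 0.93 ± 0.31 in KO-4 (adjusted p = 0.090), all by the quasi-binomial F test with Benjamini-Hochberg adjustment. The KO-1 call was lost without the KO-1 library listed second (adjusted p = 0.13). The KO-3 call was lost without the KO-3 library listed first (0.40) or the third (0.054), or the WT library listed first (0.18) or second (0.16).

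The readthrough gene AC006064.6 runs from CHD4 into NOP2, a methyltransferase of ribosomal RNA, and shares 52 introns with them, 37 in CHD4 and 15 in NOP2, of which 12 had reads enough for the test in at least 1 clone. Introns 37 and 38 of CHD4 were the 2 called. Intron 36 of CHD4, next to them on the upstream side (chr12:6578138-6578408, minus strand), changed by 0.95 ± 0.33 for KO-1, 0.40 ± 0.33 for KO-2, 0.30 ± 0.34 for KO-3 and 0.22 ± 0.33 for KO-4 on the log2 odds scale (SE), with adjusted p of 0.18 or more. Intron 8 of NOP2, with ATATCCTT at its 5′ end and AC at its 3′ end, had levels of 7.35, 4.39 and 4.59% for KO-1, 4.16, 5.50 and 5.15% for KO-2, 2.71, 5.69 and 3.98% for KO-3 and 4.45, 5.34 and 5.85% for KO-4, against 1.68, 3.58 and 4.47% in WT. The groups overlapped, and changes of 0.81, 0.63, 0.34 and 0.71 did not pass, with adjusted p of 0.26, 0.38, 0.87 and 0.24 by the quasi-binomial F test with Benjamini-Hochberg adjustment. No intron named for AC006064.6 alone was listed, so these reads cannot be assigned between the readthrough gene and CHD4 or NOP2.

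**Figure D4:**
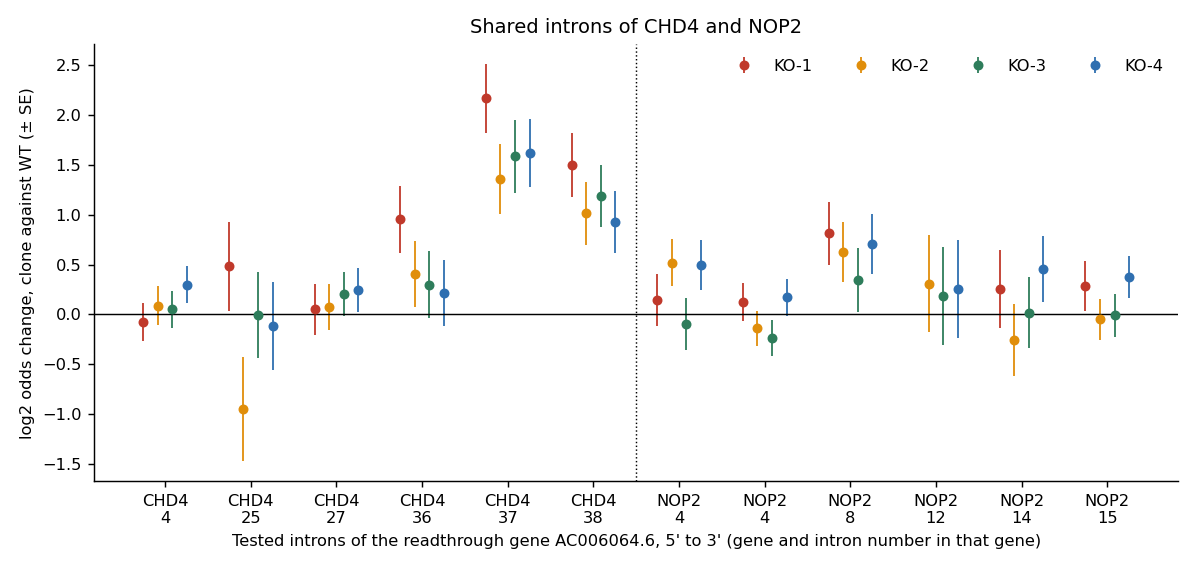
Change in the log2 odds of retention (y axis, ± SE) in each clone against WT for the 12 tested introns that AC006064.6 shares with CHD4 and NOP2, in the order of the transcript (x axis). NOP2 intron 4 appears at 2 places, as 2 overlapping introns with different 3′ ends. CHD4 introns 37 and 38 lie at 0.93 or above in all 4 clones.

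ZNF207 encodes BuGZ, a zinc finger protein of the kinetochore and spindle. Its first intron (chr17:32350327-32351785, plus strand, 1459 nt), shared with AC005899.4, had levels of 4.36, 4.23 and 2.45% for KO-1, 1.89, 1.30 and 1.50% for KO-2, 1.21, 2.48 and 1.80% for KO-3 and 0.861, 1.27 and 1.26% for KO-4, against 0.388, 0.580 and 0.552% in WT. No clone library overlapped with WT, and KO-1 stood above KO-2 and KO-4 in every library. The change was 2.93 ± 0.37 for KO-1 (adjusted p = 1.0e-10), 1.61 ± 0.38 for KO-2 (0.0044), 1.85 ± 0.38 for KO-3 (0.00069) and 1.14 ± 0.39 for KO-4 (0.096) on the log2 odds scale (SE, quasi-binomial F test, Benjamini-Hochberg). The clones differed from each other (adjusted p = 3.1e-07). The KO-1 call held with any library left out. The KO-2 call was lost without the KO-2 or the WT library listed first (adjusted p = 0.053 and 0.057), and the KO-3 call without the KO-3 library listed second (0.060).

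The other shared introns with U12-like first bases were not called. TM9SF1 intron 5 of 5 and STRADA intron 11 of 12 were tested and changed by -0.12 to 0.45 on the log2 odds scale, with adjusted p of 0.53 or more. GPN1 intron 4 of 14, which has GTATCCTT exactly, had too few reads for the test and levels of 2.53 to 4.80% for KO-1, 1.85 to 4.32% for KO-2, 0.377 to 1.46% for KO-3 and 1.05 to 4.03% for KO-4, against 1.30 to 2.42% in WT. Its libraries overlapped with WT in KO-2, KO-3 and KO-4, and in KO-1 all 3 lay above. In SQOR intron 6 of 10 all 3 WT libraries were at 0%, and the clones reached at most 3.78%. By first bases, 2 of 5 tested shared introns were called higher in KO-1, KO-2 and KO-3 and 1 of 5 in KO-4, against 44 of 122, 30 of 139, 26 of 133 and 27 of 136 introns of 1 gene. Of the shared introns with 2 or more mismatches in the first 8 bases, 3 of 435, 5 of 516, 2 of 487 and 5 of 522 were called higher. For such introns of 1 gene it was 78 of 9423, 137 of 11163, 33 of 10571 and 178 of 11319. In either direction 1.15, 1.74, 0.616 and 1.53% of these shared introns were called. The share was 1.02, 1.59, 0.558 and 2.02% for introns of 1 gene.

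**Figure D5:**
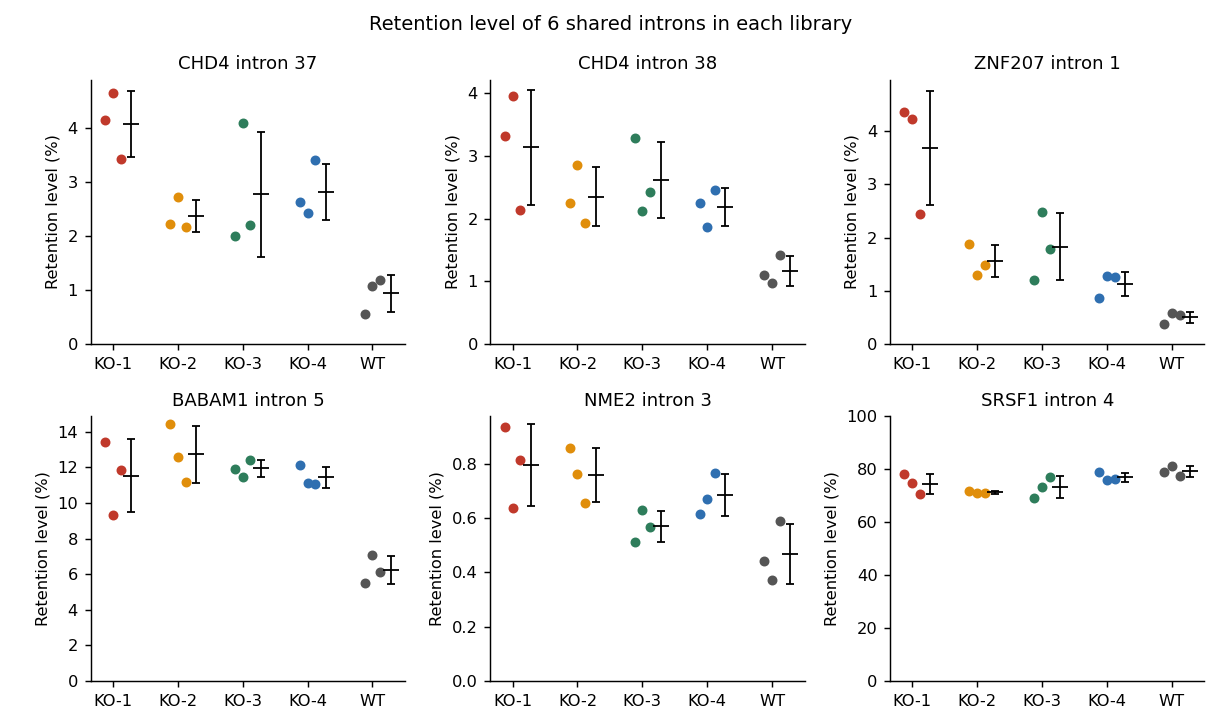
Retention level (percent) of 6 called shared introns in each library (points), by clone and WT (x axis), with the mean ± SD of 3 libraries (bars). In CHD4 introns 37 and 38, ZNF207 intron 1 and BABAM1 intron 5 every clone library lies above the WT libraries, NME2 intron 3 is called higher in 3 clones, and SRSF1 intron 4 is called lower in KO-1, KO-2 and KO-3.

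BABAM1 encodes MERIT40, a subunit of the BRCA1-A and BRISC deubiquitinase complexes, and 2 neighbouring introns that it shares with AC010463.1 were higher. Intron 5 of 8 (chr19:17274186-17275800, plus strand) had 13.5, 9.35 and 11.8% for KO-1, 14.4, 12.6 and 11.2% for KO-2, 11.9, 11.5 and 12.4% for KO-3 and 12.1, 11.1 and 11.1% for KO-4, against 5.49, 7.08 and 6.11% in WT. Every clone was above WT, at about the same level, and no difference among clones passed (adjusted p = 0.94). The changes were 0.95 ± 0.30, 1.12 ± 0.26, 1.03 ± 0.26 and 0.96 ± 0.26 on the log2 odds scale (SE), with adjusted p of 0.11, 0.0066, 0.028 and 0.019. Intron 6 (chr19:17275826-17276494, plus strand) had 0.94 ± 0.30, 1.13 ± 0.27, 0.98 ± 0.27 and 0.80 ± 0.27, and passed in KO-2 alone (adjusted p = 0.0080). None of these calls held with each library left out: the highest adjusted p was 0.075 in KO-2 and 0.22 in KO-3 for intron 5, both without the WT library listed first, 0.14 in KO-4 without the same library, and 0.062 for intron 6 without the KO-2 library listed first. With centring, intron 5 in KO-4 gave 0.097.

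Intron 3 of 4 of NME2, shared with NME1-NME2 (chr17:51168344-51169936, plus strand), is spliced in almost all transcripts, with 10109, 12200 and 9395 spliced reads in WT. Its level was 0.934, 0.635 and 0.813% for KO-1, 0.857, 0.761 and 0.655% for KO-2, 0.513, 0.628 and 0.565% for KO-3 and 0.615, 0.671 and 0.766% for KO-4, against 0.443, 0.372 and 0.587% in WT. KO-1, KO-2 and KO-4 lay above WT, and KO-3 overlapped with it. The changes were 0.79 ± 0.18 (adjusted p = 0.0053), 0.72 ± 0.16 (0.0035), 0.31 ± 0.17 (0.65) and 0.57 ± 0.16 (0.034) on the log2 odds scale. Without the KO-1 library listed first the KO-1 value was 0.26, and without the WT library listed second the adjusted p of KO-1, KO-2 and KO-4 was 0.057, 0.11 and 0.30. With centring the KO-4 value was 0.25. The neighbouring intron 2 (chr17:51166957-51168241, plus strand) had 0.0724, 0.0530, 0.0469 and 0.0468% in the clones, against 0.0632% in WT.

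SRSF1 is an SR protein, one of the factors that choose splice sites. The level of its last intron was high, and can take in reads of an annotated exon that lies inside it. Intron 4 of 4 (chr17:58004002-58004922, minus strand), shared with AC015813.2, had 78.3, 74.6 and 70.8% for KO-1, 71.8, 71.0 and 71.0% for KO-2, 69.0, 73.4 and 77.2% for KO-3 and 79.1, 76.0 and 76.2% for KO-4, against 78.9, 81.4 and 77.3% in WT. KO-2 and KO-3 lay below WT, and KO-1 and KO-4 overlapped with it. The change was -0.37 ± 0.10 (adjusted p = 0.047), -0.63 ± 0.09 (4.4e-07), -0.50 ± 0.10 (0.0029) and -0.19 ± 0.09 (0.35). The KO-2 call held with any library left out, the KO-1 call was lost in 4 of 6 fits (up to 0.58, without the third KO-1 library), and the KO-3 call without the KO-3 library listed first (0.24) or the WT library listed second (0.15). The clones differed (adjusted p = 0.0028). An intron carried by AC015813.2 alone, some way downstream (chr17:57989270-57989648, minus strand), had 10.8 ± 2.52, 12.7 ± 1.27, 7.93 ± 1.70 and 10.8 ± 1.58% of the shared introns' spliced reads in the clones, against 5.05 ± 0.85% in WT (SD, n = 3 each), which was not tested.

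DDX39B, the helicase UAP56 that loads the export machinery on mRNA, shared its introns with ATP6V1G2-DDX39B. Intron 1 (chr6:31540535-31541949, minus strand) had 40.6, 41.0 and 41.2% for KO-1, 49.7, 45.4 and 48.7% for KO-2, 50.4, 47.5 and 52.6% for KO-3 and 49.4, 46.8 and 52.5% for KO-4, against 49.2, 51.2 and 54.6% in WT. KO-1 alone stood clear of WT in all its libraries and was called, with a change of -0.62 ± 0.10 (adjusted p = 1.8e-05) that held with any library left out. A second listed intron (chr6:31540665-31541949, minus strand) has the same 5′ end and another 3′ end. Its level was 8.66% in WT, and it changed the other way in KO-1, by 0.57 ± 0.25 (adjusted p = 0.37, quasi-binomial F test). Whether use of that 3′ end adds to the retained reads of intron 1 was not tested. Intron 6 (chr6:31532912-31535366, minus strand) had 14.7, 14.0 and 13.3% in KO-2 and 11.5, 13.9 and 12.3% in KO-4, against 9.54, 7.88 and 12.6% in WT, with changes of 0.56 ± 0.12 (adjusted p = 0.0026) and 0.40 ± 0.12 (0.0496). The KO-2 call was lost without the WT library listed second (0.14) and the KO-4 call in 5 of the 6 fits (up to 0.51) and with centring (0.44). The clones differed in introns 1 and 6 (adjusted p = 0.00027 and 3.4e-05).

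CDK5RAP3, a component of the UFM1 ligase complex, shared introns with AC018521.1. Intron 5 of 13 (chr17:47974449-47975158, plus strand) had 59.3, 63.0 and 60.2% for KO-1, 68.3, 67.7 and 66.9% for KO-2, 58.2, 55.2 and 57.0% for KO-3 and 69.0, 67.7 and 68.7% for KO-4, against 58.9, 55.8 and 63.4% in WT. KO-2 and KO-4 lay above WT and the others overlapped with it, and the clones differed (adjusted p = 3.4e-08). The called changes were 0.51 ± 0.12 in KO-2 (adjusted p = 0.0064) and 0.56 ± 0.12 in KO-4 (0.0015), and the KO-2 call was lost in 3 fits, up to 0.14 without the WT library listed second. Both calls were lost with each clone centred on its median intron (adjusted p = 0.052 in KO-2 and 0.069 in KO-4). Intron 3 (chr17:47973651-47973930, plus strand) went the other way in KO-2, with 9.86, 11.5 and 13.8%, against 17.3, 18.4 and 20.9% in WT, and a change of -0.81 ± 0.17 (adjusted p = 0.0015) that held with any library left out.

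Lower retention was found in few other introns. MIF encodes a secreted cytokine. Its intron 2 of 2 (chr22:23894945-23895039, plus strand), shared with AP000350.4, had 0.883, 0.752 and 0.708% for KO-1, 0.612, 0.617 and 0.728% for KO-2, 0.639, 0.897 and 0.912% for KO-3 and 0.788, 0.532 and 0.666% for KO-4, against 0.965, 1.22 and 0.906% in WT. KO-1, KO-2 and KO-4 were below WT, and KO-3 overlapped with it by 1 library. The changes were -0.43, -0.69, -0.38 and -0.68 on the log2 odds scale, called in KO-2 (adjusted p = 0.030) and KO-4 (0.029), and without the WT library listed second the adjusted p of KO-2 and KO-4 was 0.35 and 0.31.

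The first intron of NDUFS3, a complex I subunit, and of PTPMT1, a mitochondrial phosphatase of cardiolipin synthesis (chr11:47565797-47565905, plus strand), was the only called intron with no readthrough tag. It had 25.8, 28.5 and 26.8% for KO-1, 28.3, 28.1 and 29.7% for KO-2, 17.1, 26.1 and 29.3% for KO-3 and 21.0, 20.1 and 24.3% for KO-4, against 34.0, 33.9 and 30.1% in WT. All 12 clone libraries were below WT. The change passed in KO-4 (-0.82 ± 0.17, adjusted p = 0.00096), with any library left out, and was -0.39, -0.28 and -0.61 in KO-1, KO-2 and KO-3 (adjusted p = 0.37, 0.52 and 0.091).

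LIME1, a transmembrane adaptor of lymphocyte signalling, was lower in KO-4 at its first intron (chr20:63736713-63737532, plus strand), with 22.9, 25.2 and 27.3% in KO-4, against 35.8, 39.2 and 43.8% in WT, a change of -0.98 ± 0.22 (adjusted p = 0.0028). Its level in KO-3 was 42.4 to 43.2%, and the clones differed (adjusted p = 4.6e-05). The first intron of DMPK, a kinase whose gene carries the myotonic dystrophy repeat, was lower in KO-2 (-1.41 ± 0.32, adjusted p = 0.0053), with 10.4 to 21.3%, against 25.3 to 42.0% in WT. Intron 2 of SNHG32, a small nucleolar RNA host gene, was lower in KO-1 (-0.85 ± 0.18, adjusted p = 0.0019), with 9.88 to 13.4%, against 16.7 to 27.7% in WT. The 80 nt first intron of FKBP1A, the prolyl isomerase that binds FK506, was lower in KO-2 (-0.68 ± 0.20, adjusted p = 0.049), with 1.89 to 2.94%, against 3.10 to 4.56% in WT. In each of these the named clone did not overlap with WT. The LIME1 call held with any library left out, while the adjusted p reached 0.10 for DMPK, 0.058 for SNHG32 and 0.27 for FKBP1A.

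The other introns were called higher in 1 clone each, although some were high in other clones too, as given above for PSMA1, GPS2 and NEURL4. In KO-1 they lay in PSMA1, a proteasome subunit (intron 1, 0.87 ± 0.23, adjusted p = 0.034), GPS2, a subunit of the NCoR corepressor (intron 10, 1.69 ± 0.50, 0.049) and RPL17, a ribosomal protein (intron 1, 0.31 ± 0.07, 0.0049). Levels of the RPL17 intron were 21.3 to 22.4% in KO-1, against 17.7 to 19.4% in WT. In KO-2 they lay in PAGR1, a partner of a histone methyltransferase complex (intron 2, 1.91 ± 0.49, 0.0069), POLD1, the catalytic subunit of DNA polymerase delta (intron 24, 1.26 ± 0.36, 0.042), and S100A13, a calcium-binding protein (intron 2, 0.90 ± 0.25, 0.035). In KO-4 they lay in NEURL4 (intron 25, 1.80 ± 0.51, 0.022), TUT1, which adds uridines to U6 snRNA (intron 6, 1.82 ± 0.59, 0.048), HOMER3, a synaptic scaffold protein (intron 8, 1.83 ± 0.57, 0.033), and EIF4A1, the helicase of cap-dependent translation (intron 10, 0.64 ± 0.16, 0.015). Leaving out 1 library raised the highest adjusted p to between 0.062, for RPL17, and 0.36, for GPS2, so that none of these calls held in all 6 fits, and with centring the PAGR1 call alone was kept. TUT1, HOMER3, PAGR1, GPS2 and NEURL4 had on average under 10 retained reads in WT and passed the filter on reads through the clone, where they had more. TUT1 had 22, 23 and 13 retained reads in KO-4, against 2, 8 and 4 in WT, and HOMER3 had 25, 27 and 20, against 3, 1 and 10. TUT1 and HOMER3 were tested in KO-4 alone and PAGR1 and NEURL4 in KO-2 and KO-4, while GPS2 was tested in all 4 clones and changed by 1.24 to 1.69. Called introns outside the naming rule, named here after their values were seen, lay in SRSF1 (intron 1, higher in KO-2), JTB (intron 2, higher in KO-4), DDX39B (intron 7, higher in KO-2), EIF4A1 (intron 9, higher in KO-4) and ASNS (introns 3 and 10, higher in KO-3).

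ASNS, the asparagine synthetase that amino acid shortage induces, shared 12 listed introns with AC079781.5, and 3 of the 8 calls in KO-3 were in it. Intron 6 of 13 (chr7:97858956-97859212, minus strand) had 2.38, 1.17 and 3.20% for KO-1, 2.39, 2.02 and 2.24% for KO-2, 3.35, 4.17 and 1.61% for KO-3 and 2.80, 2.30 and 2.40% for KO-4, against 1.62, 1.02 and 1.83% in WT. The change in KO-3 was 1.18 ± 0.31 (adjusted p = 0.037), although the third KO-3 library overlapped with WT. Over the 12 introns, retained reads summed to 484, 312 and 146 in KO-3, against 118, 134 and 153 in WT, and spliced reads to 14496, 7441 and 5925, against 7274, 9937 and 7084. The KO-3 library listed first thus had the most reads of both kinds. Without it the adjusted p was 0.35, and it was 0.31 without the KO-3 library listed second, 0.12 without the WT library listed first and 0.32 without the one listed second.

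Among the 12 clone libraries alone, the quasi-binomial F test with Benjamini-Hochberg adjustment found a difference among clones for 38 of 681 shared introns (5.58%), where 7.06% of all 18064 introns tested passed. Of the 34 introns called against WT 30 could be tested in this way, and 14 of them differed among the clones. They had been called from the same clone libraries, 25 of the 34 in 1 clone only, which favours a difference among clones. Their share is thus no independent measure beside that of all introns.

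As a group the shared introns moved with the rest. The median log2 odds of the tested shared introns, minus that of introns of 1 gene in the same library, averaged -0.24 for KO-1, -0.33 for KO-2, -0.38 for KO-3 and -0.28 for KO-4, against -0.24, -0.33, -0.35 and -0.32 in the WT libraries over the same introns. The clone and WT libraries overlapped in KO-1, KO-2 and KO-3. In KO-4 they did not, with -0.30, -0.27 and -0.27 in KO-4, against -0.32, -0.34 and -0.30 in WT, a difference of 0.04 on the log2 odds scale for which no test was made. That difference turned to -0.015 with no filter on reads and to -0.049 with a mean of 50 reads or more.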

How the data were processed

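The authors sequenced polyA RNA from 3 independent experiments per group with a directional kit, per the labels' protocols, and trimmed reads with cutadapt 2.0 and aligned them with STAR 2.7.1a to hg38, per the submitters' processing notes. Which tool counted junction reads, and whether it used strand, is not given in the sources used here. For each clone against WT the authors deposited 1 table, whose cells list 3 libraries each: raw counts of retained and spliced junction reads, effective lengths and fractions retained, beside the authors' own p-values and FDR. Libraries are named by the order listed, since the lists carry no replicate numbers. Lists of WT were the same in all 4 tables.

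Members and gene lists were chosen with earlier results of these data known. Levels were recomputed from counts and lengths. Introns that averaged 10 or more retained reads and 10 or more spliced reads were tested with a quasi-binomial model, with its Pearson dispersion moderated by limma 3.58.1 (squeezeVar, R 4.3.3) and floored at 1, a two-sided F test, and Benjamini-Hochberg over all introns of a comparison. The test was checked on simulated data. A planned quasi-likelihood count test was not run, as it takes 1 count per feature and the cells hold lists. Pairs of libraries of a group differed by more than counting noise, and none were identical.

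Genes, exons, readthrough tags and sequences came from GENCODE 29. Partners were classed by name: readthrough (hyphenated), antisense, small-RNA, clone-based, LINC and ordinary symbols. The pattern for clone-based names was widened by the prefixes L, CU, KF and FO after the names were seen. Named introns were, per clone, at most 6 higher and 6 lower calls by size with 1 per name set, calls in 2 or more clones with 1 direction, the 2 highest and 2 lowest levels in WT of each class among introns tested in any clone, with a mean of at least 50 junction reads and 1 per name set, the 5 introns with most names, and the largest name sets. Alternatives were limma on log2 odds (pseudocount 0.5), no filter, a minimum of 50 reads, centring on the median intron, a threshold of 0.01, the authors' FDR, no clone-based partners, and each library left out. Depth is the junction reads of the tables, and the reads of an intron limit its precision.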

Additional observations from a re-analysis of the deposited data

Results flagged for a closer look

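Of the 30 introns called against WT that could be tested among the clones, 14 differed among the 4 clones by the quasi-binomial F test with Benjamini-Hochberg adjustment over all 18064 introns tested. These introns had been called from the same clone libraries, which favours such differences. The adjusted p was 3.1e-07 for ZNF207 intron 1, where KO-1 was highest and KO-4 lowest of the clones, 3.4e-08 for CDK5RAP3 intron 5, where KO-2 and KO-4 were high, and 0.0011 for CDK5RAP3 intron 3, where KO-2 was low. It was 0.00027 for DDX39B intron 1, low in KO-1, and 3.4e-05 and 5.3e-05 for its introns 6 and 7, low in KO-3. SRSF1 intron 4 gave 0.0028, with KO-4 the highest clone mean and KO-2 the lowest. RPL17 intron 1 gave 0.00030, with KO-1 high, and S100A13 intron 2 gave 0.0084, with KO-2 high. DMPK intron 1 gave 0.00011, with KO-2 low, LIME1 intron 1 gave 4.6e-05, with KO-3 high and KO-4 low, and SNHG32 intron 2 gave 8.5e-05, with KO-1 lowest and KO-3 highest. ASNS introns 10 and 3 gave 0.041 and 0.047, with KO-3 high.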

How the results depend on the processing

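Counts of called shared introns, 10, 17, 8 and 14 in KO-1 to KO-4, changed by over 1.5 times under several settings. With limma on log2 odds they were 1, 0, 0 and 0, while 42, 74, 57 and 87 had an unadjusted p under 0.05, which was not counted over all tested introns. A minimum of 50 reads gave 5, 10 and 3 in KO-1 to KO-3, and no filter gave 13 in KO-3. An adjusted p of 0.01 gave 11, 3 and 4 in KO-2 to KO-4, and centring gave 9 in KO-4. Counts over all tested introns moved in the same direction under each of these settings. Without clone-based partners the counts were 3, 3, 0 and 5, of fewer introns tested. In KO-1 16 shared introns, and in KO-4 31, passed by the FDR of the authors' deposited table. Of all tested introns 363 higher and 90 lower passed by that FDR in KO-1, and 786 and 159 in KO-4. With 1 library left out the counts of shared introns ran from 6 to 16, 7 to 25, 2 to 12 and 6 to 37. Both these counts and those of all tested introns were highest without the third WT library. The cause of these moves was not tested, beyond the smaller number of introns or libraries. None of the 49 named calls turned round, and 9 held with each library left out, 32 with centring and 1 with limma.

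The WT difference of medians, -0.16 points, was -0.30 with no length scaling, -1.49 with at least 10 reads and -0.142 over introns of all 4 tables, and turned to 0.118 without clone-based partners and 0.0812 with no exon inside (-0.166 to -0.147 with a library left out). The difference within genes, -14.5 points, was -22.5, -10.2, -6.45, -25.7 and -0.411 under these settings in the same order, -16.3 to -13.4 with a library left out, and -5.10 and -0.39 without readthrough-only genes and also without exons inside, both added after seeing the data. The clone-minus-WT shift of the shared median, set against introns of 1 gene in log2 odds, was -0.049 in KO-1 and -0.015 in KO-4 with no filter, -0.064 and -0.049 with at least 50 reads, and -0.00088 in KO-3 without clone-based partners. With a library left out it ran from -0.03 to 0.01, -0.02 to 0.03, -0.06 to -0.02 and 0.03 to 0.05. No paired analysis was possible because the lists of libraries carry no replicate numbers.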

Other observations

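Other readthrough genes differed in how often they were spliced across. The joining intron of HNRNPUL2-BSCL2 (chr11:62707325-62715499, minus strand), between a nuclear RNA-binding protein and seipin, had 6.50 ± 0.403% of the shared introns' spliced reads for KO-1, 6.44 ± 2.68% for KO-2, 5.59 ± 2.03% for KO-3 and 7.88 ± 0.946% for KO-4, against 7.63 ± 1.24% in WT (SD, n = 3 each). That of RBM14-RBM4 (chr11:66617058-66639699, plus strand), which joins a pair of RNA-binding proteins, had 12.5 ± 1.08, 6.46 ± 2.79, 7.72 ± 0.305 and 7.69 ± 1.72%, against 9.93 ± 2.45% in WT. Clone and WT libraries were not tested against each other here.

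An intron shared by MATR3, a nuclear matrix protein, and SNHG4, a small nucleolar RNA host (chr5:139279130-139279934, plus strand), had mean levels of 47.7, 43.2, 45.1 and 48.5% in the clones, against 47.1% in WT. The intron shared by IL4I1, a secreted amino acid oxidase, and NUP62, a nucleoporin (chr19:49927816-49929325, minus strand), had 73.1, 78.8, 73.9 and 80.0%, against 75.8% in WT. In both, the clones and WT overlapped.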
